A study of Mus musculus with 30 samples.

Results

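The genes described here encode 9 adhesion molecules of the immunoglobulin superfamily in mouse primary visual cortex (V1): Cadm1, whose protein is also called SynCAM1, Ncam1, L1cam, Chl1, Cntn1, Cntn2, Cxadr, Alcam and Thy1. They are 9 of 15965 genes that the array annotation names alone on at least 1 probe set. Every probe set with 1 of these symbols alone was taken, which gave 28 probe sets (chip A 13, chip B 10, chip C 5). The genes were chosen by family and with their signals at the 3 ages in these same arrays already known. Their differences with age are therefore given as a description, with standard errors. Statements that a member value passed the threshold of the fit, and counts of such values, belong to that description. They are not tests of these genes and support nothing.

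V1 was dissected from litters of normally reared mice at postnatal days 14, 28 and 60 (P14, P28 and P60), with 3, 3 and 4 litters. RNA of each of the 10 litters was hybridised to 3 Affymetrix arrays, called chips A, B and C, which makes 30 arrays with 36899 probe sets per litter. The strain, the sex and the number of pups in a litter sample are not given in the sources used here, and no group carried a treatment or an allele named in the labels. The p-values printed set differences between ages against the spread between these litter samples. Values are MAS5 signals, a linear intensity in arbitrary units, and litters are always listed in number order, 1 to 3 at P14 and at P28 and 1 to 4 at P60.

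Immunoglobulin-family adhesion molecules sit in the cell surface and bind, through chains of immunoglobulin domains, to the same or to related molecules on a neighbouring cell. In developing cortex they act in axon growth and bundling, in synapse formation and in the contact of axons with glia. Several are made in more than 1 splice form, so probe sets placed on different parts of a transcript can follow different forms.

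Some arrays stood apart. The 3′ to 5′ signal ratios of P14 litter 1 were 9.57 to 12.2 (Gapdh) and 12.2 to 12.8 (Actb), against at most 1.32 and 1.5 in any of the other 27 arrays. P60 litters 1 and 4 on chips A and B and P60 litter 2 on chip C also correlated less with the remaining arrays. Values without P14 litter 1, and in a restricted set that leaves out those P60 arrays too, stand beside the results they touch. Of the 14 neuronal marker genes measured, none lay below the level of the Bacillus control probe sets at all 3 ages, on the brightest probe set of each. Gad2, on 109431_at of chip B, lay below that level at P60, with a mean of 133. That level, the 95th percentile of 15 control probe sets, was 98.4 (chip A), 153 (chip B) and 252 (chip C). Of the 28 probe sets, 5 lay below it at all 3 ages and failed the filter on low signals, which left 23 for the fit. These 5 were 1 each of Chl1, Cntn1 and Cxadr and 2 of Ncam1, and every gene kept at least 1 tested probe set.

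Promoter sequence from RefSeq (build GRCm38.p6) was available for 5 of the 9 genes. In 3 of them, L1cam, Cntn1 and Alcam, the window lies outside the annotated gene, and 230 bases of it are printed so that the upstream sequences can be compared. They are written 5′ to 3′ on the strand of the gene, and capitals mark GGGCGG, the letters of a GC box, and also those of the shorter CCAAT box, on either strand. The 3 stretches are at chrX:73880855-73881084 on the minus strand for L1cam, at chr15:92050915-92051144 on the plus strand for Cntn1 and at chr16:52453102-52453331 on the minus strand for Alcam.
L1cam: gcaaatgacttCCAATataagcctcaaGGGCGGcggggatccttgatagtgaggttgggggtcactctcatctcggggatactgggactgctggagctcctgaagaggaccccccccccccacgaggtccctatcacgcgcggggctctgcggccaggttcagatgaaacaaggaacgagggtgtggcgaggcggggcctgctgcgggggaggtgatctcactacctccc
Cntn1: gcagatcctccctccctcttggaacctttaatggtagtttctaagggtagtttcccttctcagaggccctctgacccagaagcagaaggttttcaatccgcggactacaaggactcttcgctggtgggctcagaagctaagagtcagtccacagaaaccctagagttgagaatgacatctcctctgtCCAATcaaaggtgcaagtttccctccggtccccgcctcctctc
Alcam: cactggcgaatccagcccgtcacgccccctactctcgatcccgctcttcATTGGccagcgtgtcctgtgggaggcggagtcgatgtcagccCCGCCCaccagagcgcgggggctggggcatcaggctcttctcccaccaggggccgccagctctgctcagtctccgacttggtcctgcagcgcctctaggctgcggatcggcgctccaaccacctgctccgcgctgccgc
L1cam and Alcam each hold 1 GC box and 1 CCAAT box, and Cntn1 holds 1 CCAAT box and no GC box. TATAAA, the third motif searched, is in none of the 3. Of all 32851 promoter windows of this length, 29.8% hold a GC box, 32.2% a CCAAT box and 11.8% TATAAA on either strand. The motifs share no letters with each other, and a match of letters is not a binding site. GC content was 62.6% for L1cam, 52.2% for Cntn1 and 69.1% for Alcam, against a median of 51.7% over all windows.

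Cadm1 encodes SynCAM1, which spans the synaptic cleft, promotes the formation of excitatory synapses and in mice limits the plasticity of visual cortex in the critical period. It has 3 probe sets, all on chip A, and they did not behave alike. Probe set 93604_f_at had signals of 6323, 4247 and 4915 at P14, of 927, 1091 and 1036 at P28, and of 1747, 1428, 2078 and 1532 at P60. Every P28 litter was below every P60 litter, and every P60 litter was below every P14 litter. The means were 5162 ± 1060 (SD, n = 3) at P14, 1018 ± 83.6 (SD, n = 3) at P28 and 1696 ± 287 (SD, n = 4) at P60. On this probe set Cadm1 thus fell at P28 relative to P14, with a log2 change of -2.28 (SE 0.22). Its mean was 1.67 times higher at P60 than at P28. That log2 difference of 0.70 (SE 0.20) did not pass the threshold of the fit, in which all 10 litters weigh equally unless stated. P60 remained below P14 by a log2 change of -1.58 (SE 0.20). Without P14 litter 1, the brightest, the changes were -2.13 for P28 over P14 and -1.42 for P60 over P14, and both still passed the threshold.

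The other Cadm1 probe sets showed a smaller difference or a different course. Probe set 93605_r_at comes from the same cDNA record as 93604_f_at and had signals of 434, 173 and 276 at P14, of 155, 143 and 185 at P28, and of 293, 185, 198 and 366 at P60. Its P28 litters were low and overlapped those at P14, and its P60 litters overlapped both earlier ages. The log2 differences were -0.67 (SE 0.34) for P28 over P14 and -0.12 (SE 0.32) for P60 over P14, and the second of these was 0.17 without P14 litter 1. Probe set 93606_s_at comes from another record and had signals of 923, 1487 and 1638 at P14, of 1195, 921 and 1127 at P28, and of 733, 935, 1112 and 517 at P60. Here P14 litter 1 was the lowest P14 litter, whereas it was the highest on the other probe sets of the gene, and the P60 litters were lowest in the mean. Its log2 differences were -0.28 (SE 0.29) for P28 over P14 and -0.70 (SE 0.28) for P60 over P14, and without P14 litter 1 they were -0.52 and -0.94. Over the 10 litters, log2 signals of 93604_f_at correlated with those of 93605_r_at at r = 0.56 and with those of 93606_s_at at r = 0.35, on shared arrays and as a description. The suffixes f, r and s mark probe sets designed under relaxed rules, which related transcripts can share, and Cadm1 has no probe set of the plain kind. Which transcripts the 3 probe sets read was not tested.

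**Figure D1:**
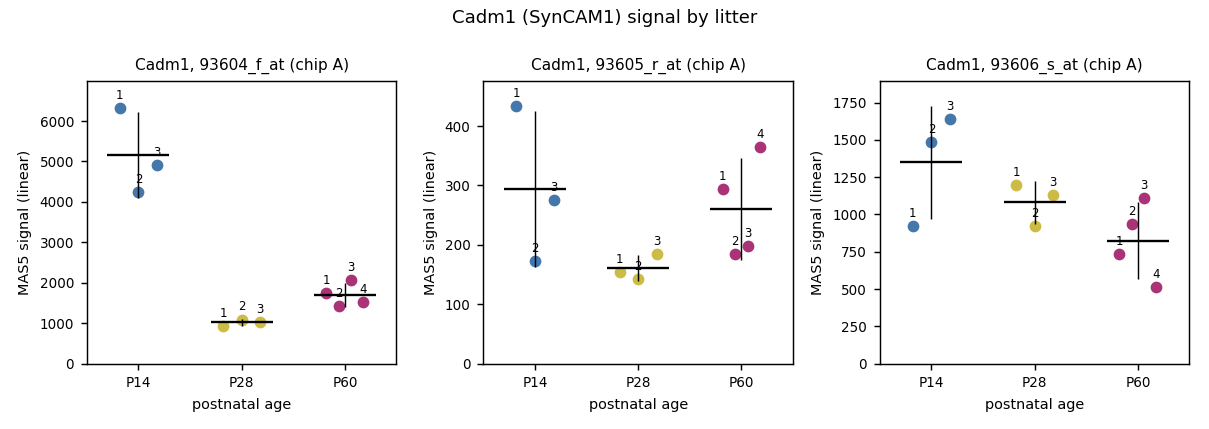
MAS5 signal of the 3 Cadm1 probe sets (y axes, arbitrary units) at P14, P28 and P60 (x axes); each point is a litter and carries its number, horizontal lines are means and bars are SDs. Probe set 93604_f_at is far lower at P28 and P60 than at P14, with P28 lowest, and the other probe sets overlap between ages.

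Ncam1 encodes the neural cell adhesion molecule, which carries polysialic acid early in development and acts in neurite growth and synaptic plasticity. Its bright probe set, 100153_at on chip A, had signals of 2953, 3408 and 3567 at P14, of 1610, 1540 and 1871 at P28, and of 1580, 1724, 1702 and 1426 at P60. All later litters were below all P14 litters, and the P28 and P60 litters overlapped. The means were 3310 ± 319 (SD, n = 3) at P14, 1673 ± 174 (SD, n = 3) at P28 and 1608 ± 137 (SD, n = 4) at P60. On this probe set Ncam1 fell at P60 relative to P14, with a log2 change of -1.02 (SE 0.17), and that of P28 over P14 was -0.97 (SE 0.19), which did not pass the threshold. It did so without P14 litter 1 (-1.05), in the restricted set (-1.05) and with array weights, which count noisier arrays less. Between P60 and P28 the difference was -0.06 (SE 0.17).

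A second tested Ncam1 probe set, 161750_f_at on chip A, followed single litters. Its signals were 362, 418 and 358 at P14, 194, 268 and 283 at P28, and 1974, 393, 217 and 1093 at P60. Each P28 litter was below each P14 litter, while P60 litters 1 and 4, the arrays that stood apart on this chip, were high and the other two P60 litters lay near the earlier ages. The log2 difference of P60 over P14 was 0.76 (SE 0.55) with all litters and -0.36 in the restricted set. Ncam1 probe sets 100152_at on chip A and 164277_at on chip B had age means between 16.9 and 37.2 and between 60.6 and 97.1, below the Bacillus level at every age.

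L1cam encodes L1, a membrane protein of growing axons that binds ankyrin inside the cell and whose loss in humans disturbs the corpus callosum and corticospinal tract. Its chip B probe set 110182_at had signals of 3535, 4612 and 3978 at P14, of 1687, 1270 and 1917 at P28, and of 1145, 1440, 1663 and 1163 at P60. The P14 litters were all above the later ones, and P28 and P60 overlapped. The means were 4042 ± 541 (SD, n = 3) at P14, 1625 ± 328 (SD, n = 3) at P28 and 1353 ± 247 (SD, n = 4) at P60. On this probe set L1cam fell at P60 relative to P14, with a log2 change of -1.55 (SE 0.21), and the change was -1.64 without P14 litter 1. For P28 over P14 the change was -1.30 (SE 0.22) and did not pass. It passed in the restricted set and without P14 litter 1 (-1.39 in both), and with array weights.

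The chip A probe set of L1cam, 99800_at, was dim. Its signals were 58.3, 227 and 249 at P14, 48.5, 38.8 and 87.5 at P28, and 214, 85.6, 134 and 115 at P60. The P28 mean of 58.2 was below the Bacillus level, and P14 litter 1 sat with the P28 litters rather than with the other two P14 litters. Its log2 difference for P28 over P14 was -1.04 (SE 0.48) with all litters and -1.55 without P14 litter 1. That of P60 over P14 was -0.20 (SE 0.45) with all litters and -0.70 without P14 litter 1, in both cases smaller in size than on 110182_at.

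Chl1 encodes the close homolog of L1, which in mouse cortex acts in the orientation of apical dendrites. Probe set 114091_at on chip B had signals of 5787, 4484 and 3770 at P14, of 3126, 2938 and 2875 at P28, and of 2739, 2901, 3706 and 2770 at P60. The later litters were all below the P14 litters, though P60 litter 3 at 3706 came close to P14 litter 3. Its log2 difference was -0.62 (SE 0.21) for P28 over P14 and -0.61 (SE 0.19) for P60 over P14, and without P14 litter 1, the highest, these were -0.46 and -0.44. None of these 4 values passed the threshold. Chl1 probe set 103088_at on chip A had age means of 334, 295 and 320 at P14, P28 and P60, with litters that overlapped between all ages. On chip C, 169984_i_at read 2779 in P60 litter 2, the array that stood apart there, and between 92.8 and 428 in the other 9 litters. Its log2 difference of P60 over P14 was 0.87 (SE 0.74) with all litters and 0.29 in the restricted set. The remaining Chl1 probe set, 161239_r_at on chip A, was below the Bacillus level at every age.

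**Figure D2:**
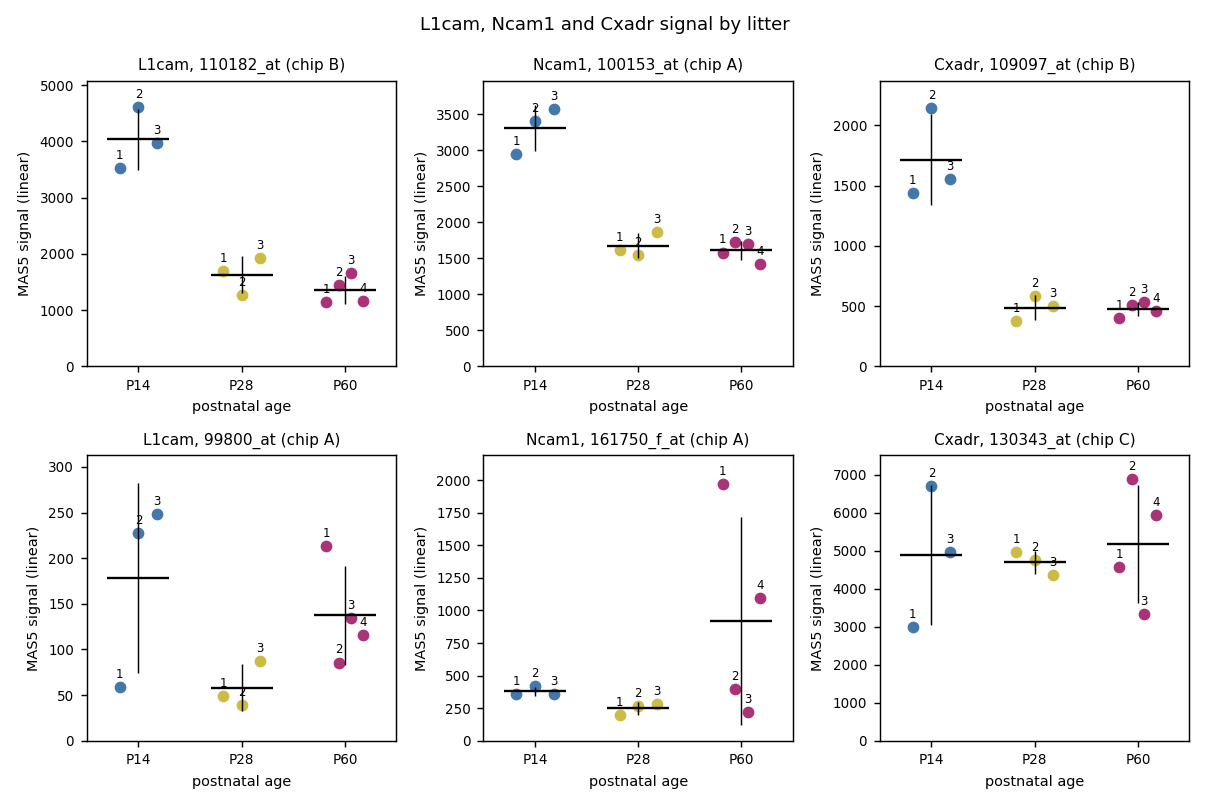
MAS5 signal (y axes, arbitrary units) by age (x axes) for the main and a second tested probe set of L1cam, Ncam1 and Cxadr; points are litters with their numbers, lines are means and bars are SDs. On the main probe set of each gene all P14 litters lie above all later litters, and the second probe set overlaps between P14 and P60.

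Cxadr encodes the coxsackievirus and adenovirus receptor, a junctional protein that binds scaffolds with PDZ domains and is abundant in developing brain. Its chip B probe set 109097_at had signals of 1440, 2146 and 1556 at P14, of 378, 584 and 499 at P28, and of 403, 512, 534 and 461 at P60. P14 lay above both later ages without overlap, and P28 and P60 overlapped. The means were 1714 ± 379 (SD, n = 3) at P14, 487 ± 103 (SD, n = 3) at P28 and 478 ± 58.6 (SD, n = 4) at P60. On this probe set Cxadr fell at P60 relative to P14, with a log2 change of -1.71 (SE 0.21), and the change was -1.70 in the restricted set. That of P28 over P14 was -1.70 (SE 0.22), which did not pass the threshold. It passed under 5 of 19 other settings, among them the fit without P14 litter 1 (-1.81). P60 over P28 gave -0.01 (SE 0.21).

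Probe set 130343_at of Cxadr, on chip C, showed none of this. Its signals were 3002, 6706 and 4976 at P14, 4972, 4757 and 4369 at P28, and 4583, 6894, 3329 and 5939 at P60. All 3 ages overlapped, and P14 litter 1 was the lowest of the 10 litters. The log2 difference was 0.01 (SE 0.31) for P28 over P14 and 0.11 (SE 0.29) for P60 over P14, and both turned negative without P14 litter 1, at -0.30 and -0.21. Over the 10 litters, log2 signals on 109097_at and 130343_at had a correlation of r = 0.00. The chip A probe set of Cxadr, 93725_at, was below the Bacillus level at every age, so the course of the gene rests on 1 of its probe sets.

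The contactins are linked to the membrane by a lipid anchor. Cntn1 encodes contactin 1, which forms a complex with Caspr at the paranodes of myelinated axons. Its chip B probe set 105826_at had signals of 1981, 3924 and 3043 at P14, of 1737, 1402 and 1860 at P28, and of 866, 1244, 1538 and 1158 at P60. P14 lay above the later ages without overlap, with P14 litter 1 nearest to them, and P28 and P60 overlapped. The log2 difference was -0.77 (SE 0.27) for P28 over P14 and -1.25 (SE 0.25) for P60 over P14. Without P14 litter 1 the differences were -1.04 and -1.51, and that of P60 over P14 then passed the threshold.

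Both other tested Cntn1 probe sets were flatter. Probe set 92936_at on chip A read 6373, 4158 and 3691 at P14, 4004, 3244 and 3908 at P28, and 3022, 2957, 4610 and 3740 at P60. Probe set 164059_f_at on chip B read 4929, 3366 and 2998 at P14, 3535, 2914 and 3192 at P28, and 3046, 2859, 4207 and 2585 at P60. On both, P14 litter 1 was the highest of all litters and the rest overlapped. The log2 differences of P60 over P14 were -0.38 (SE 0.24) and -0.23 (SE 0.22). They were -0.15 and -0.03 without P14 litter 1, and -0.08 and 0.12 in the restricted set. On 105826_at P14 litter 1 was instead the lowest P14 litter, so leaving it out moved the 3 probe sets of the gene in opposite ways. The chip C probe set 170177_r_at was below the Bacillus level at all ages.

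Cntn2 encodes contactin 2, or TAG-1, which is found on outgrowing axons and later at the juxtaparanodes of myelinated axons and on the myelinating glia. It was the only one of the 9 genes whose tested probe sets were all higher in the mean at both later ages than at P14. Probe set 107389_at on chip B had signals of 415, 472 and 534 at P14, of 560, 719 and 722 at P28, and of 975, 606, 668 and 978 at P60. P28 and P60 each lay above P14 without overlap, and the highest values came from P60 litters 1 and 4. The log2 differences were 0.45 (SE 0.23) for P28 over P14 and 0.68 (SE 0.21) for P60 over P14, and that of P60 over P14 was 0.31 in the restricted set.

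Probe set 114733_at of Cntn2, also on chip B, read 105, 548 and 417 at P14, 576, 723 and 726 at P28, and 638, 718, 541 and 1057 at P60. P14 litter 1 was far below the others, and P60 litter 3 lay just under P14 litter 2. The log2 difference of P60 over P14 was 1.10 (SE 0.38) with all litters and 0.53 without P14 litter 1 (0.35 in the restricted set), a value of the size seen on 107389_at (0.60 without that litter). On chip C, 131702_at overlapped between ages and had log2 differences of 0.30 (SE 0.23) for P28 over P14 and 0.34 (SE 0.22) for P60 over P14. No Cntn2 probe set passed the threshold in the equally weighted fit, and with array weights 107389_at and 114733_at passed for P60 over P14.

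**Figure D3:**
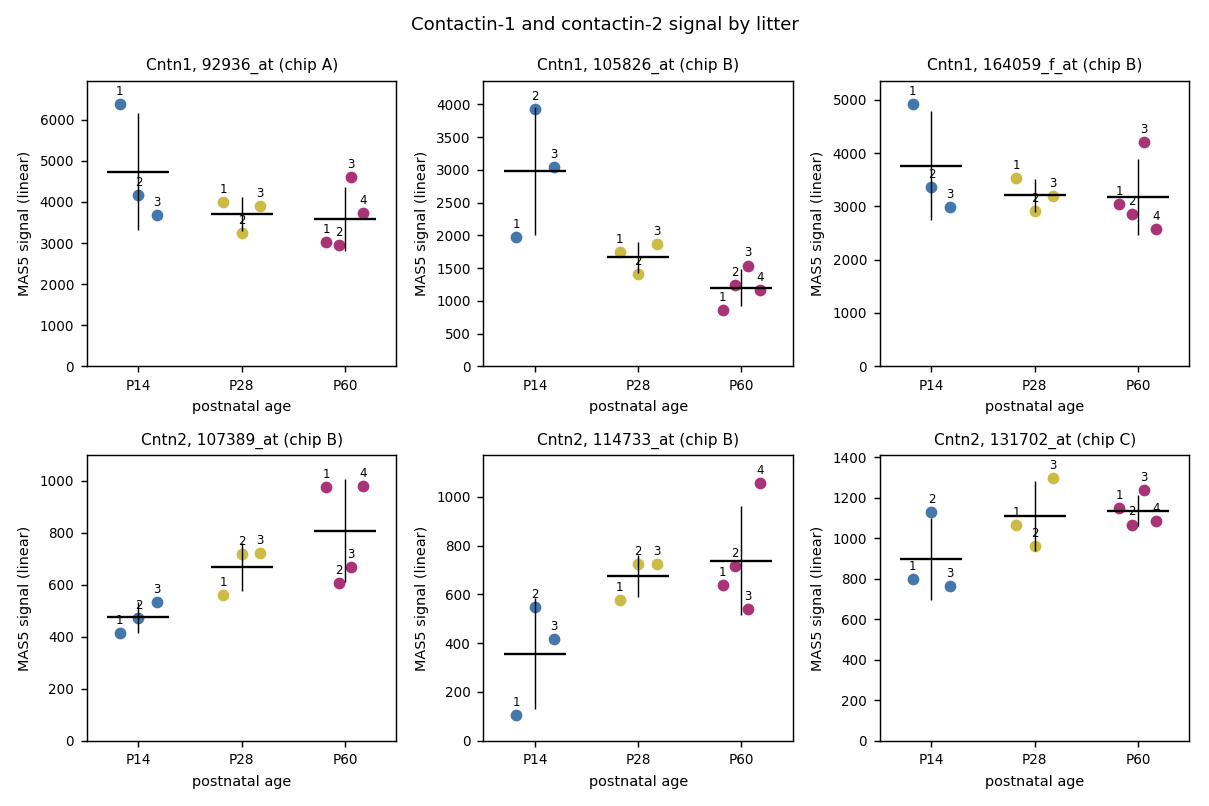
MAS5 signal (y axes, arbitrary units) by age (x axes) for the 3 tested probe sets each of Cntn1 and Cntn2; points are litters with their numbers, lines are means and bars are SDs. Cntn1 105826_at is lower at both later ages while the other Cntn1 probe sets overlap, and the Cntn2 probe sets have higher means after P14.

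Alcam encodes activated leukocyte cell adhesion molecule, which acts in axon guidance and bundling and binds CD6 on T cells. Its 4 probe sets were lower in the mean at P60 than at P14, by log2 differences that lay between -0.61 and -0.31 (SE 0.21 to 0.33), and the litters overlapped on each of them. P14 litter 1 was the highest P14 litter on 3 of them, as on 107969_at, where it read 5051 beside 1979 and 2637 in the other two P14 litters, and it was the lowest on 113908_at. Without it the difference was -0.23 on 107969_at, -0.09 on 166517_f_at, -0.18 on 104407_at and -0.39 on 113908_at. In the restricted set the 4 differences lay between -0.14 and 0.08. Across the 10 litters, log2 signals of 107969_at and 166517_f_at correlated at r = 0.93. The other pairs of Alcam probe sets had r between 0.31 and 0.68. Thy1 encodes a small lipid-anchored protein that is abundant on mature neurons. Its single probe set, 99057_at on chip A, had means of 11189 ± 1773 (SD, n = 3) at P14, 9616 ± 1205 (SD, n = 3) at P28 and 9322 ± 1987 (SD, n = 4) at P60. The ages overlapped, and the log2 difference of P60 over P14 was -0.28 (SE 0.23) with all litters, 0.00 in the restricted set and -0.16 without P14 litter 1.

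Set side by side, 19 of the 23 tested probe sets were lower and 4 higher in log2 mean at P28 than at P14, with a median difference of -0.31, beside 0.03 over all 20724 probe sets tested. In 9 of them the litters of the 2 ages did not overlap, 7 lower and 2 higher at P28. Over all probe sets this was so in 17.9%, with 8.41% lower and 9.45% higher. In limma's fit over all probe sets with Benjamini-Hochberg adjustment, 1 of the 23 passed the threshold, Cadm1 93604_f_at, which was lower, beside 0.00483% of all probe sets. It is the single probe set called in this comparison with all litters. Without P28 litter 1 or without P28 litter 3, 0 of the 23 passed, beside 0 of all 20724 probe sets. By contrast, 4 passed without P14 litter 1, beside 0.125% of all probe sets, and 5 in the restricted set, beside 1.00%. For P60 over P28, 12 were higher and 11 lower, with a median of 0.01 beside -0.01 over all probe sets. Litters did not overlap on 1, Cadm1 93604_f_at, which was higher at P60. Over all probe sets 8.36% did not overlap and 3.90% were higher. None of the 23 passed in limma, beside 0% of all probe sets, and 2 had an unadjusted p under 0.05, beside 5.43% of all probe sets.

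For P60 over P14, 17 were lower and 6 higher, with a median of -0.31 beside 0.06 over all probe sets. Without P14 litter 1 the median was -0.18, beside 0.02 over all probe sets. On 7 the litters did not overlap, 6 lower and 1 higher at P60, beside 13.0% of all probe sets, 6.42% lower and 6.61% higher. In limma 4 of the 23 passed, 1 each of Cadm1, Ncam1, L1cam and Cxadr, all lower at P60, beside 0.396% of all probe sets, of which 0.290% were lower and 0.106% higher. Without P14 litter 1 this count was 5, with Cntn1 105826_at added, beside 2.40% of all probe sets, and in the restricted set it was also 5, beside 2.13%. The count was 0 without P14 litter 2, beside 0 of all 20724 probe sets, and 1 without P60 litter 4, beside 8 of all probe sets. Over 19 other settings Cxadr 109097_at passed in 17, Cadm1 93604_f_at and L1cam 110182_at in 16 each and Ncam1 100153_at in 9. Since these genes were selected on the same signals, nothing is read from these counts. The arrays read tissue, so fewer cells of a type and less RNA per cell cannot be told apart in any of these values.

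**Figure D4:**
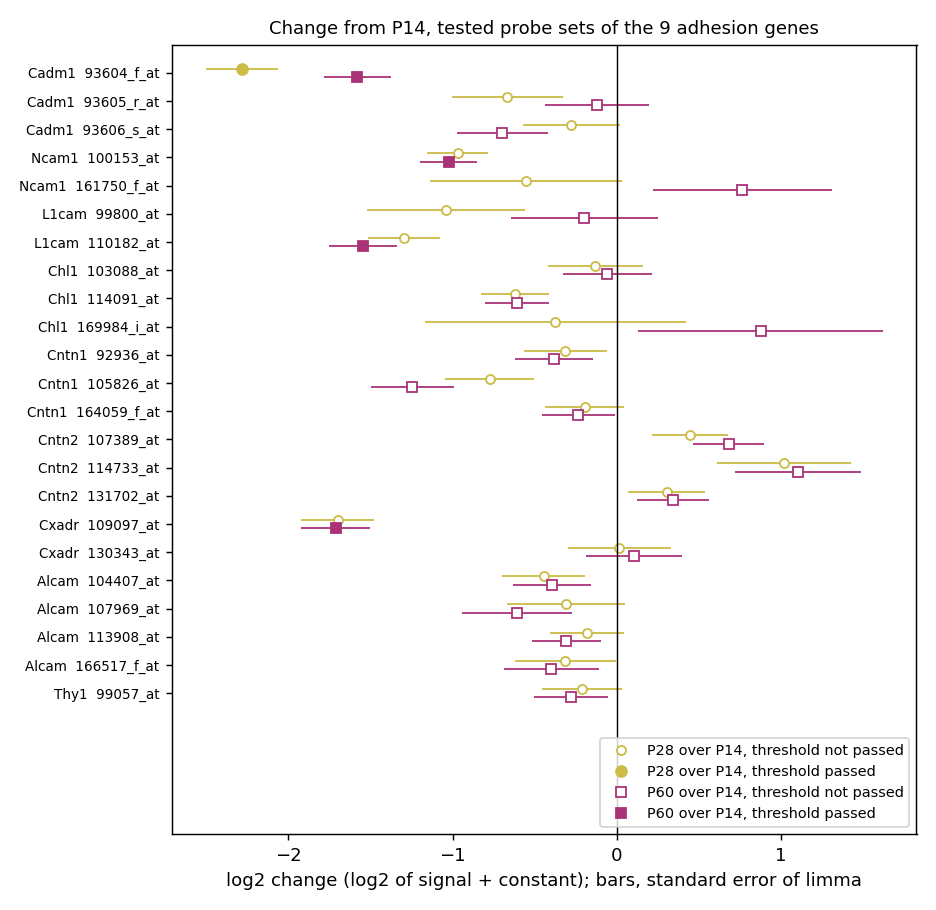
Log2 change from P14 (x axis) for the 23 tested probe sets of the 9 genes (rows), at P28 and at P60; points are estimates of the limma fit, bars are standard errors, and filled symbols passed the threshold. The rows of 1 gene are often spread widely, as for Cadm1, Cxadr and L1cam, and the 3 Cntn2 probe sets lie right of 0.

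Markers of cell types were summed over genes, with the brightest probe set of each. The sum over 12 genes of axon growth and immature neurons was 52538 to 62141 at P14, 41867 to 45128 at P28 and 34719 to 41331 at P60, so its P14 litters lay above all later ones. The same held for 9 meningeal and fibroblast genes, with 11512 to 12173 at P14, 6715 to 7466 at P28 and 5998 to 7662 at P60, of which Igf2 made up the largest share. The sum over 14 neuronal genes, by contrast, overlapped between ages, with 70681 to 132181 at P14, 75724 to 81367 at P28 and 62442 to 81435 at P60. The highest value was that of P14 litter 1, as it was for the 9 astrocyte genes, which ran between 44702 and 98746 at P14, between 47596 and 57578 at P28 and between 40278 and 60916 at P60. The sum over 11 myelin genes was 6193 to 13270 at P14, 11884 to 19496 at P28 and 13423 to 17699 at P60, and of these genes Cnp lay below the Bacillus level at every age. The 13270 was that of P14 litter 1, and P14 litters 2 and 3, at 6193 and 6935, lay below every later litter. For 5 choroid plexus genes the sum was 502 to 864 at P14, 1064 to 1925 at P28 and 1197 to 1576 at P60. There the P14 litters lay below all later ones, and Kl was below the Bacillus level at every age. For 3 blood genes it was 5272 to 23993 at P14, 24816 to 34303 at P28 and 17478 to 51144 at P60. What part these shifts have in the differences of the adhesion genes was not tested.

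Likeness of course over the 10 litters was measured by Pearson's r of log2 signal among 17234 tested probe sets with 1 symbol, and is given as a description. Closest to Cadm1 93604_f_at were Ppp4r1 (r = 0.95, Spearman's rho = 0.94), Arhgap24 (r = 0.94, rho = 0.84) and Dcx (r = 0.94, rho = 0.90). Dcx encodes doublecortin, a microtubule protein of young neurons. Closest to Cxadr 109097_at were Nav1 (r = 0.96, rho = 0.95), Ppp1r14c (r = 0.96, rho = 0.87) and Ncam1 on its bright probe set 100153_at (r = 0.96, rho = 0.68). For Ncam1 the rule took the probe set with the widest range of age means, 161750_f_at, and the closest genes were Dtymk, Stx17 and Ttn, with r between 0.97 and 0.98. These follow P60 litters 1 and 4: without those litters r was 0.88, 0.87 and 0.75 over 8 litters.

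The other immunoglobulin-family adhesion genes were taken from family membership, with earlier results of these data known. The list had 57 genes on the arrays with 100 probe sets, of which 70 for 46 genes were tested. In limma 0 of these 70 passed for P28 over P14 (13 with an unadjusted p under 0.05), 0 for P60 over P28 (3 unadjusted) and 1 for P60 over P14 (21 unadjusted). Over all probe sets an unadjusted p under 0.05 was found in 7.87%, 5.43% and 15.7%, and 0.00483%, 0% and 0.396% passed. Without P14 litter 1 the count for P60 over P14 was 9, beside 2.40% of all probe sets. Without P60 litter 3 it was 2, beside 260 of all 20724 probe sets. It was 0 without any 1 of the other litters, beside 0 to 40 of all probe sets. The medians were -0.14, 0.00 and -0.12, beside 0.03, -0.01 and 0.06 over all probe sets. They were, without P14 litter 1, -0.21 for P28 over P14 and -0.24 for P60 over P14, beside 0.01 and 0.02 over all probe sets. The single call was Mag, which encodes myelin-associated glycoprotein on the inner face of the sheath. Its probe set 102405_at on chip A read 133, 295 and 353 at P14, 781, 999 and 652 at P28, and 630, 945, 709 and 817 at P60. Both later ages lay above P14 without overlap. On this probe set Mag rose at P60 relative to P14 by a log2 change of 1.51 (SE 0.28, limma adjusted p = 0.0461), and the change was 1.16 without P14 litter 1 (adjusted p = 0.0235). Under the 19 other settings the adjusted p of Mag lay between 0.00334 and 0.161, and 6 of them kept it past the threshold. The second tested Mag probe set, 161846_r_at, overlapped between all ages, with log2 differences of -0.04 (SE 0.37) for P28 over P14 and 0.38 (SE 0.35) for P60 over P14, and a P60 over P14 difference of -0.13 in the restricted set.

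Among the closest relatives of the 9 genes none passed in the equally weighted fit with all litters. Contactin 6, encoded by Cntn6 and active in the development of mouse cortical neurons, had signals of 1002, 1607 and 858 at P14, of 395, 482 and 155 at P28, and of 273, 87.2, 72.6 and 455 at P60 on 136734_at of chip C. Its litters at P14 were above all later ones, the P60 mean of 222 was below the Bacillus level, and the log2 difference of P60 over P14 was -2.39 (SE 0.52, limma adjusted p = 0.0665). It passed under 2 of 19 other settings, with adjusted p between 0.0123 and 0.190. It was the only tested probe set of the 3 contactins on this list. Nfasc, which encodes neurofascin of the axon initial segment and nodes, differed between its probe sets: 116395_at had a log2 difference of P60 over P14 of -1.02 (SE 0.29, limma adjusted p = 0.136) and 116375_at of 0.54 (SE 0.18, limma adjusted p = 0.183). In the restricted set these were -0.41 and 0.33. Cadm3, or SynCAM3, showed the same split, with -0.77 (SE 0.22, limma adjusted p = 0.134) on 138003_at, which passed without P14 litter 1, and 0.47 (SE 0.22, limma adjusted p = 0.327) on 105687_at. Nectin3, which encodes a nectin of cell junctions, was at -0.75 (SE 0.25, limma adjusted p = 0.192) on 111239_at, and at -1.04 without P14 litter 1 (adjusted p = 0.0332). Nrcam, an L1 relative at nodes, was at -0.31 (SE 0.24, limma adjusted p = 0.544), and at -0.01 in the restricted set.

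The IgLON genes encode lipid-anchored proteins of neuronal surfaces, and their 10 tested probe sets were all lower in log2 mean at P60 than at P14. The median was -0.55 with all litters and -0.52 without P14 litter 1, and 0 of the 10 passed in limma (5 had an unadjusted p under 0.05, beside 15.7% of all probe sets). Without P14 litter 1, 2 of the 10 passed, beside 2.40% of all probe sets, and in the restricted set 2, beside 2.13%. Opcml was at -0.95 (SE 0.28, limma adjusted p = 0.141), Negr1 at -0.90 (SE 0.28, limma adjusted p = 0.153) and Ntm, on 163670_f_at, at -0.73 (SE 0.29, limma adjusted p = 0.251). In the restricted set these were -0.42 for Opcml, -0.56 for Negr1 and -0.13 for Ntm. For 11 tested SynCAM and nectin probe sets the median was 0.23 with all litters and -0.06 without P14 litter 1, so its sign turned with that litter. The 9 tested probe sets of the junctional adhesion molecules and relatives of Cxadr had a median of 0.06 with all litters and -0.16 without P14 litter 1. Of these, Jam2, which encodes a junctional adhesion molecule, had 2 tested probe sets at -0.68 (SE 0.40, limma adjusted p = 0.421) and -0.65 (SE 0.28, limma adjusted p = 0.300), which in the restricted set were -0.29 and -0.45. Clmp, whose product is related to that of Cxadr, was at -0.34 (SE 0.38, limma adjusted p = 0.695), and at -0.51 in the restricted set.

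**Figure D5:**
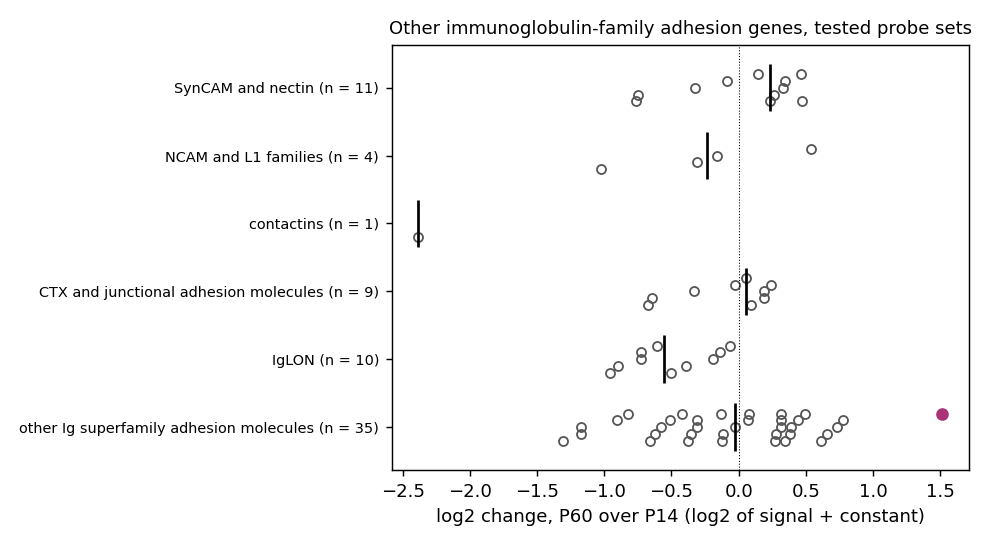
Log2 change of P60 over P14 (x axis) for the tested probe sets of the other immunoglobulin-family adhesion genes, grouped by subfamily (rows); each point is a probe set, black lines are medians, and filled points passed the threshold. The IgLON points all lie left of 0, and Mag is the filled point right of 0.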

How the data were processed

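Probe set signals were deposited by the authors as linear intensity values made with MAS5, per the submitters' processing notes, which name no version. The arrays were MG-U74Av2, MG-U74Bv2 and MG-U74Cv2. Each array's 2% trimmed mean was 500, so no further scaling was applied. Litter numbers came from the second number in each title. The members and all lists were chosen with earlier results of these data known.

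Symbols came from the platform annotation, updated through gene IDs (99.7% matched), and probe sets with several symbols were left out. Signals were analysed as log2(signal + the 20th percentile of the chip type), which was 38.6, 57.8 and 44.0 for chips A, B and C. Array controls and probe sets above their chip type's median on fewer than 3 arrays were not tested, which left 20724. Each chip type was fitted with limma 3.58.1 in R 4.3.3 (lmFit, eBayes with a variance trend) on all 10 litters with age as the only term, with Benjamini-Hochberg adjustment over the 3 chip types and a threshold of 0.05. Precision is limited by the number of litters, with 3, 3 and 4 at P14, P28 and P60. The procedure was tested on simulated data. Every probe set of the 9 genes was reported. Of the other lists, those past the threshold were named, or the 3 with the largest change of P60 over P14 where none passed. This was done by subfamily for the family and by partner group for the partners. The suffixes f, i, r and s mark relaxed probe set designs, which 9 of the 28 have. The alternatives were other constants, no filter, quantile normalization, array weights, no variance trend, adjustment within chips, the litter number as a block, each litter left out and the restricted set.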

Additional observations from a re-analysis of the deposited data

Results flagged for a closer look

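In groups of 4 litters, here those at P60, a litter was marked by Dixon's criterion, where its gap to the nearest other litter on the log2 scale, divided by the range of the group, was above the 95% critical value. Of the 28 probe sets of the 9 genes, 2 had such a litter, and chance marks about 1 group in 20. On Ncam1 100152_at, P60 litter 3 read 81.8 beside 19.0, 22.5 and 25.5 in the other P60 litters, with all age means below the Bacillus level. On Chl1 103088_at, P60 litter 2 read 477 beside 256, 268 and 279 in the other P60 litters.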

How the results depend on the processing

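Among member values and those picked by the naming rule, some passed the threshold in at least 1 setting. Of these, only Bace1 162553_at changed sign under any of the 19 settings tried. Its P60 over P14 difference was 0.99 with all litters and passed in 1 other setting. In the restricted set it was -0.04. For P28 over P14, 1 member probe set passed with all litters and the planned settings. It was 2 with the chip median as the added constant, 2 with adjustment within each chip type, 6 with array weights and 5 in the restricted set, and 0 to 4 when 1 litter was left out. Over all probe sets these settings gave 4, 5, 1163 and 208, and 0 to 26 when 1 litter was left out, against 1 with the planned settings. For P60 over P14 the member count was 4, against 10 with array weights, and 0 to 5 when 1 litter was left out. Over all probe sets it was 82, against 3621 with array weights, and 0 to 497 when 1 litter was left out. For P60 over P28 the member count was 0 in every setting. The other family genes had 0 for P28 over P14, against 11 with array weights and 4 in the restricted set, and 1 for P60 over P14. That became 0 with a constant of 1, with no filter, with quantile normalization or without the variance trend, 2 with the chip median as constant, 20 with array weights, 10 in the restricted set and 0 to 9 when 1 litter was left out. For P60 over P14, all probe sets gave 78 with a constant of 1, 60 of 36701 with no filter and 87 with quantile normalization. They gave 51 without the variance trend, 92 with the chip median as constant and 441 in the restricted set. Array weights down-weight arrays that vary more, and the cause of the other moves was not tested. The restricted set, named in an earlier description of these data, was chosen after seeing them.

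With the litter number as a replicate block, 0 of the 23 probe sets passed in each comparison, 0 of the 70 of the other family genes and 0 of all probe sets. The labels link litters of the same number by that number alone. Of 27 same-number correlations of deviations from the age means, 4 were over 0.1 (median 0.03). Between litters of different numbers 4 of 72 were over 0.1 (median -0.002). Whether litters of the same number share anything else was not tested.

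Of the 28 probe sets 21 were above the Bacillus level at all ages. Leaving out P14 litter 1, P14 litter 2, P28 litter 1, P28 litter 3 or P60 litter 4 moved how many of them passed by over 1.5 times in a comparison. Calls over all probe sets also moved when each of these litters was left out.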

Other observations

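Known partners of the 9 proteins were looked at as a list of 55 genes on the arrays with 127 probe sets, of which 86 for 49 genes were tested. In limma with Benjamini-Hochberg adjustment 0 of the 86 passed in any of the 3 comparisons, while 12, 4 and 23 had an unadjusted p under 0.05 for P28 over P14, P60 over P28 and P60 over P14, beside 7.87%, 5.43% and 15.7% of all probe sets. For P60 over P14, 6 passed without P14 litter 1, beside 2.40% of all probe sets. Among the partners of L1 and Chl1, Ank2, which encodes an ankyrin that ties membrane proteins to the spectrin skeleton, read 7842, 5765 and 7292 at P14, 3337, 3327 and 4347 at P28, and 2471, 2982, 4608 and 2469 at P60. All its later litters were below the P14 litters, and the log2 difference of P60 over P14 was -1.17 (SE 0.24, limma adjusted p = 0.0613), and -1.08 without P14 litter 1 (adjusted p = 0.0484). Its other tested probe set, 169976_at, was not past the threshold (limma adjusted p = 0.471). Fyn, a kinase that acts downstream of NCAM, was at -0.86 (SE 0.19, limma adjusted p = 0.0808; adjusted p = 0.0316 without P14 litter 1), with 831, 870, 1107 and 687 at P60 against 1499, 1591 and 1696 at P14. St8sia2, which encodes a polysialyltransferase, was at -0.79 (SE 0.50, limma adjusted p = 0.457), and its low P60 values of 114 and 109 were those of litters 1 and 4. In the restricted set, which leaves these out, its direction turned, at 0.32.

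Of the intracellular partners of SynCAM1, Lin7c, a PDZ protein that binds CASK, was at -0.91 (SE 0.28, limma adjusted p = 0.156) on 116147_at, and at -1.19 without P14 litter 1 (adjusted p = 0.0402). Epb41l3, a protein 4.1, was at -0.88 (SE 0.46, limma adjusted p = 0.372) on 117011_at, and at -1.52 without P14 litter 1 (adjusted p = 0.0466). Notch1, a receptor that contactin 1 can bind, had 2 tested probe sets on chip A that went opposite ways, 97497_at at -1.52 (SE 0.37, limma adjusted p = 0.103) and 162204_r_at at 1.39 (SE 0.40, limma adjusted p = 0.139). In the restricted set these were -1.13 and 0.90. The naming rule, applied by partner group, also picked Bace1 (0.99), Numb (0.78) and Fgfr1 (0.59), which were higher at P60 than at P14. It picked Itgb1 (-0.81), Epb41l1 (-0.77), Magi1 (-0.64), Tjp1 (-0.51) and Itgav (-0.50) as well, which were lower. In the restricted set these were, in the same order, -0.04, 0.44, 0.44, -0.56, -1.12, -0.71, -0.26 and -1.41. The Itgav value there rests on P60 litters 2 and 3, which read 20.1, below the Bacillus level, and 252. P60 litters 1 and 4, left out of that set, read 390 and 458.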
